A study of Drosophila melanogaster with 12 samples.

Results

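The genes described here are the 70 Drosophila genes whose symbol is CR followed only by digits, the form given to loci annotated as noncoding, that stood in both deposited count tables and had at least 500 counts summed over all 12 libraries. They were chosen from 657 CR genes in both tables, among 15288 genes in both. The other 587 CR genes lay under that limit, and 207 of them had 0 counts in every library. The sum of counts chose the members, so that their levels are given as a description, and a member that is high in a single group could reach the limit through that group.

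The libraries hold RNA bound in precipitates of embryos of 1.5 to 3 h, when the embryo passes from maternal to zygotic transcription and the blastoderm cellularizes. In the antibody experiment, lysate of wild-type embryos was precipitated with antibody against Slam, a protein of the furrow canal at the tip of the ingrowing membrane (Slam 1 to 3, n = 3), or with a control antibody against Dia, an actin-elongating formin that is also found at the furrow canal (Dia 1 to 4, n = 4). In the GFP-binder experiment, the same single-chain GFP antibody was given lysate of embryos carrying GFP-slam, a genomic transgene with GFP at the amino terminus (GFP-slam 1 and 3, n = 2), or of wild-type embryos labelled OrR, which have no GFP (n = 3). Each control thus differs from its counterpart in the antibody or in the strain, and no RNA of unprecipitated lysate was analysed here. An enrichment compares bound RNA with bound RNA. In the GFP-binder experiment, binding to Slam and a different amount of the RNA in the transgenic strain cannot be told apart.

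Long noncoding RNAs are transcripts without a long reading frame. Some act as RNA, some are the precursors from which microRNAs or small nucleolar RNAs are cut, and others are made from the strand opposite a coding gene. In the fly, hairpin RNAs (hpRNAs) fold on themselves and are cut into endogenous siRNAs. The libraries were made with a TruSeq RNA kit that does not keep the strand, so that the strand cannot separate reads of a member from those of a gene that overlaps it. Overlap was taken over whole gene spans, introns included, and whether exons are shared was not examined.

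Library totals ranged from 25077683 to 31647090 counts with the Slam antibody and from 4383704 (Dia 3) to 21220787 with the Dia antibody, and from 39400688 to 47249817 in GFP-slam and from 20170936 to 29453698 in wild type. The control libraries of each experiment were thus shallower than the others. Eggshell genes of follicle cells summed to at most 0.328 CPM in any library and 4 to 6 of the 6 were at 0 in all but GFP-slam 3, where 2 were. Of the 11 markers of the zygotic blastoderm, at most 1 was at 0 in a library, with sums of 1139 to 1783 CPM with the Slam antibody, 694 to 1431 CPM with the Dia antibody, 888 and 1676 CPM in GFP-slam and 772 to 2440 CPM in wild type. The 7 genes of later embryos summed to 171 to 713 CPM with the Slam antibody and to 179 to 2030 CPM with the Dia antibody, highest in Dia 1, and to 50.2 and 428 CPM in GFP-slam against 97.4 to 340 CPM in wild type.

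The name CR did not describe one kind of RNA. Of the 70 members, 59 were matched to a gene of RefSeq (Release 6). These were 38 long noncoding RNAs, 6 antisense RNAs, 4 other noncoding RNAs (the hairpin RNAs CR18854, CR32207 and CR32205 and the small RNA CR43603), 10 pseudogenes and 1 gene now annotated as protein coding, CR43051. Among the long noncoding RNAs, 8 spanned a microRNA gene. The other 11 had no entry under their symbol, and 6 of them lay on unplaced scaffolds in the deposited tables. A protein-coding gene overlapped 30 of the 59 matched members, and 19 overlapped no listed gene. The sequences of the members were not used here.

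Counts were concentrated in few members. Sums ranged from 505 to 289063 with a median of 1991, and CR43887 held 41.7% of all member counts, CR43887 and CR43432 together 51.9%, and the 10 highest members 80.5%. Just inside the limit lay CR43629, CR43963 and CR43257 with 537, 520 and 505 counts, and just outside it CR43242, CR43314 and CR31781 with 496, 476 and 469 counts. In 25 members, the sum fell under 500 without the Slam libraries, and in 4 without the GFP-slam libraries. Over the 7 control libraries alone, 36 members reached 500 counts.

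The 70 members took 0.232%, 0.469% and 0.461% of the counts with the Slam antibody, against 0.139%, 0.177%, 0.512% and 0.253% with the Dia antibody. With the GFP-binder they took 0.0933% and 0.148% in GFP-slam, against 0.151%, 0.214% and 0.128% in wild type. Both pairs of groups overlapped. Without the 11 unmatched members and without CR43887 and CR43432, the remaining 57 members held 882, 1572 and 1359 CPM of the library totals with the Slam antibody, against 761, 1205, 1112 and 1041 CPM with the Dia antibody.

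The most counted member, CR43887, is a long noncoding RNA of 527 bases on 3L (11693135 to 11693661 in the deposited tables, identical to Release 6). It overlapped no listed gene. Its level was 1117, 2330 and 2443 CPM (counts scaled by library total and TMM factor) with the Slam antibody, against 118, 175, 294 and 946 CPM with the Dia antibody. All 3 Slam libraries were above all 4 Dia libraries, with Dia 4 standing close to Slam 1. In the GFP-binder experiment the order was not the same: 316 and 524 CPM in GFP-slam, against 486, 1143 and 392 CPM in wild type. The fitted enrichment, the log2 ratio over the control, was 2.36 with the Slam antibody (SE 0.759, edgeR adjusted p = 0.0973) and -0.68 with GFP-slam (SE 0.475, edgeR adjusted p = 0.9999), neither of which passed the threshold of 0.05.

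CR43432, called lncRNA:marge in RefSeq, is transcribed from 3L (14976626 to 14977631) and likewise overlapped no listed gene. It had 443, 603 and 532 CPM with the Slam antibody, against 40.2, 43.3, 107 and 239 CPM with the Dia antibody. The groups did not overlap, and Dia 4 was again the highest control. GFP-slam libraries had 70.6 and 118 CPM, against 133, 231 and 55.4 CPM in wild type. The fitted log2 enrichment was 2.29 with the Slam antibody (SE 0.619, edgeR adjusted p = 0.0563) and -0.57 with GFP-slam (SE 0.566, edgeR adjusted p = 0.9999).

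Whether these members passed in the antibody experiment depended on the settings of the fit, on Dia 4 and on the pairing of replicates. With all libraries kept and unpaired, DESeq2 called CR43887 (adjusted p = 0.0417) and CR43432 (adjusted p = 0.0143). CR43432 also passed in edgeR with RLE size factors (adjusted p = 0.0491) and in the fit of all 12 libraries (adjusted p = 0.0434). Without Dia 4, the log2 enrichment was 3.33 for CR43887 (edgeR adjusted p = 0.00112) and 3.06 for CR43432 (adjusted p = 0.00123). With replicate numbers as a block, which drops Dia 4 from the contrast because no Slam library shares its number, they were 3.34 (adjusted p = 1.53e-06) and 3.20 (adjusted p = 5.52e-05). The blastoderm markers summed to 1116 CPM in Dia 4, inside the range of the other Dia libraries, and their part in the levels was not tested. The study's list of enriched transcripts, drawn from these libraries, holds both members, so that their direction is not independent evidence. Per kilobase of transcript, CR43887 was at 3725 ± 1395 CPM per kb with the Slam antibody (SD, n = 3), 727 ± 725 with the Dia antibody (SD, n = 4), 797 ± 279 in GFP-slam (SD, n = 2) and 1278 ± 776 in wild type (SD, n = 3). Of the 34 members with a length in the deposited tables, it was the highest in these groups, except that CR41613 had 1253 ± 1819 with the Dia antibody (SD, n = 4). The ratio of CR43887 to CR43432 in CPM was 2.52 to 4.60 over the Slam libraries, 2.74 to 4.04 over the Dia libraries, 4.44 and 4.47 in GFP-slam and 3.67 to 7.07 in wild type.

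**Figure D1:**
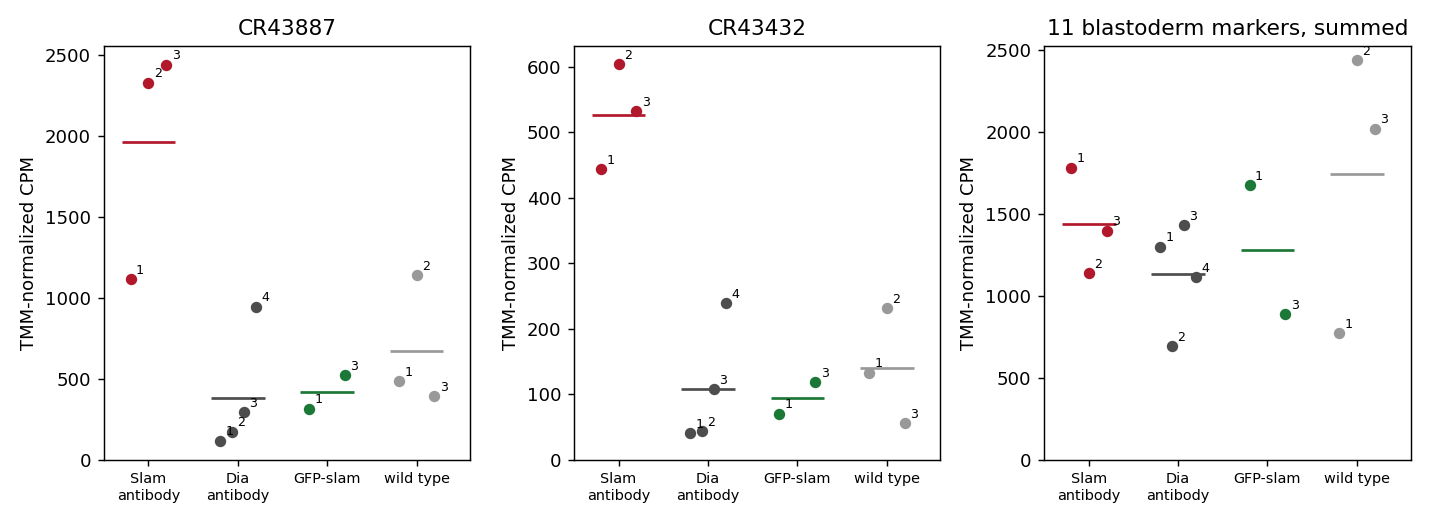
Levels of CR43887 and CR43432 and the summed level of the 11 blastoderm markers in TMM-normalized CPM (linear axes from 0), by group; points are libraries with their replicate number and lines are group means. Dia 4 stands at 946 and 239 CPM for the 2 members, above the other Dia libraries, while its marker sum of 1116 CPM does not.

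The comparison of the Slam with the Dia antibody asked which members were bound more with Slam. Among the 65 members above the minimum of counts in this experiment, 11 were higher and 2 lower in edgeR's quasi-likelihood test with Benjamini-Hochberg adjustment over all 7466 genes tested. Over all these genes, 6.84% passed as higher and 3.62% as lower. The number of higher members was 4 without Slam 2 or Slam 3, 6 without Dia 1, 7 without Slam 1, 18 in the fit of all 12 libraries and 20 in DESeq2. Without Slam 2 and Slam 3, only 55 and 56 members reached the minimum of counts. Part of that fall is thus members no longer tested, among them CR43995 and CR42719, which passed in all 12 alternatives that tested them. That of lower members was 0 without Slam 2, 1 without Slam 3, 4 in DESeq2 and 6 with replicate numbers as a block. The median log2 enrichment was 0.55 over the 65 members and -0.03 over all genes tested. More than 4-fold higher were 19 members (5.5% of all genes) and more than 4-fold lower 6 (0.241% of all genes), all 6 of them without a RefSeq entry. Without Dia 3, 2 of these 6 remained more than 4-fold lower, CR41613 and CR41535. Groups did not overlap in 23 members that were higher (15.2% of all genes) and in 7 that were lower (12.2%).

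These counts rest in part on the choice of members. Of the 25 members that would be under 500 counts without the Slam libraries, 22 were tested and 8 of those were higher. Of the 45 others, 43 were tested, 3 were higher (CR43264, CR31044 and CR31032) and 2 lower, and the median log2 enrichment was 0.19. High counts in the Slam libraries help a member to reach the limit, so that the larger count is a description and supports nothing. Not all 25 were high there: of the 22 tested, 18 had a log2 ratio above 0, and CR42195 had -2.04.

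The long noncoding RNAs that span no microRNA gene held 8 of the 11 higher members, among 27 tested, where 6.84% of all genes passed. Of these 8, 7 were among the members that reach 500 counts only with the Slam libraries, so that the count supports nothing about the class, and CR43264 was the other. CR43264 is a transcript of 318 bases on X (5831898 to 5832215) that overlaps the coding gene CG15765. Its levels were 18.5, 58.3 and 49.8 CPM with the Slam antibody, against 1.53, 1.21, 2.23 and 3.98 CPM with the Dia antibody. Its log2 enrichment was 4.22 (SE 0.496, edgeR adjusted p = 0.000304), and it passed in all 14 alternatives run, with an adjusted p of at most 0.00505. CG15765, which averaged 0.303 and 0.429 CPM in the same groups, was too low to be tested.

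CR30009, on 2R (10261315 to 10263827) and overlapping no listed gene, had 23.9, 44.8 and 45.6 CPM with the Slam antibody, against 4.60, 4.90, 4.45 and 4.35 CPM with the Dia antibody. The Dia libraries were nearly equal and all Slam libraries lay above them. The log2 enrichment was 3.05 (SE 0.302, edgeR adjusted p = 7.9e-05). Without the Slam libraries its sum would be 465 counts, just under the limit for members, so that its enrichment is a description.

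CR43995, CR43765 and CR42719 were all but absent outside the Slam libraries, without which they had 12, 36 and 29 counts. They are members only because they were high there, so that their enrichment is a description. CR43995, of 252 bases on 3L (22072369 to 22072620), had 4.32, 10.01 and 9.59 CPM with the Slam antibody and 0 counts in Dia 1 to 3, with 1 count in Dia 4. Its 694 counts with the Slam antibody against 1 with the Dia antibody give a CPM ratio of 470 (95% counting interval 84.1 to 18592, exact, for counting error only). In the GFP-binder experiment it had 11 counts in GFP-slam and 0 in wild type, which was too few to test. CR43765, on 2L (22239183 to 22239713), had 842 counts with the Slam antibody against 9 with the Dia antibody, a ratio of 63.4 (95% counting interval 33.2 to 139). CR42719, on 3L (615627 to 616646), had 3.70, 8.87 and 6.47 CPM with the Slam antibody, against 0, 0.636, 0 and 0.609 CPM with the Dia antibody.

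The fitted log2 enrichments of these low members were 8.41 for CR43995 (SE 1.01), 5.96 for CR43765 (SE 0.937) and 4.12 for CR42719 (SE 0.987). A fitted ratio against counts this low depends on single reads. Without Dia 4 it was 10.28 for CR43995 and 6.72 for CR43765, and with the replicate block 10.22 for CR43995 and 5.16 for CR42719.

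CR42646, CR43241 and CR43301 likewise reached the limit through the Slam libraries, with 203, 381 and 325 counts without them, and their enrichments are given as descriptions. CR42646, on 2R (5363253 to 5367357), had 6.83, 12.7 and 14.7 CPM with the Slam antibody, against 0.349, 0, 1.56 and 0.562 CPM with the Dia antibody. All Slam libraries were above all Dia libraries, and the log2 enrichment was 4.45 (SE 0.932) and 5.07 without Dia 3. It no longer passed without Dia 1 (edgeR adjusted p = 0.0549). CR43241, on 2L (22131221 to 22132435) and overlapping the coding gene CG42748, had 6.97, 24.9 and 13.7 CPM with the Slam antibody, against 2.93, 3.18, 0 and 2.95 CPM with the Dia antibody, a log2 enrichment of 2.67 (SE 0.770). CG42748 itself had one of -0.25 (adjusted p = 0.385). CR43301, on 3R (9338223 to 9339992), had 5.22, 13.2 and 7.17 CPM with the Slam antibody, against 1.88, 1.46, 2.89 and 1.59 CPM with the Dia antibody, a log2 enrichment of 2.16 (SE 0.583). Calls of CR43241 and CR43301 were fragile: each lost its call without any 1 of the 6 antibody libraries other than Dia 3 (edgeR adjusted p = 0.0601 to 0.195 for CR43241 and 0.0562 to 0.183 for CR43301), and CR43301 also with the replicate block (adjusted p = 0.0731).

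Other long noncoding RNAs lay above 4-fold without passing, among them CR42491 and CR43148. CR42491, on X, had 63.3, 77.5 and 50.2 CPM with the Slam antibody, against 3.56, 3.56, 17.8 and 0.983 CPM with the Dia antibody. Its log2 enrichment was 3.47 (SE 0.874, edgeR adjusted p = 0.0531) and 3.39 with the replicate block, where it passed (adjusted p = 0.0159). It also passed in DESeq2 (adjusted p = 0.00531), in the fit of all 12 libraries and without Dia 3 or Dia 4. It overlaps RpL22, which encodes a ribosomal protein and had a log2 enrichment of -0.45, and a small nucleolar RNA gene. CR43148, on 2L, had a value of 3.32 (SE 0.998, adjusted p = 0.0546) and 3.58 with the block (adjusted p = 0.0462), and is a member only through its Slam libraries, with 86 counts outside them. DESeq2 called it as well (adjusted p = 0.0072). It also passed with total-count scaling, with no minimum of counts, in the fit of all 12 libraries and without Dia 3. These members are named after their values were seen.

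**Figure D2:**
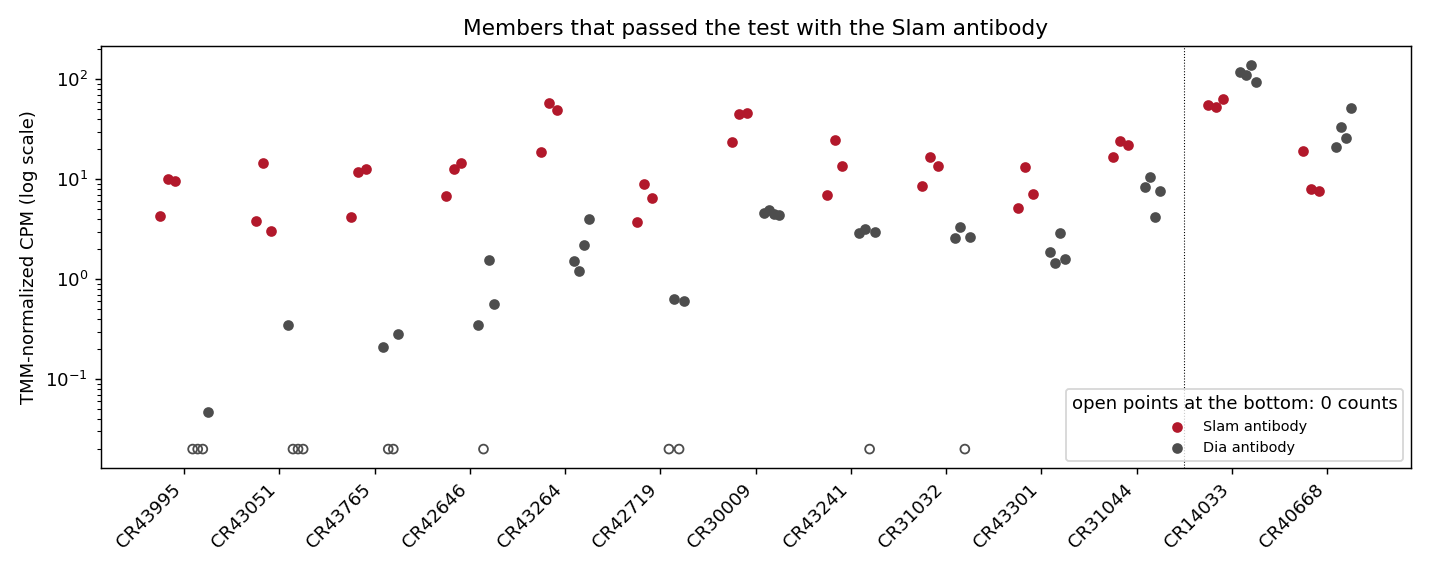
Levels in TMM-normalized CPM (log axis) of the 11 members that were higher and the 2 that were lower with the Slam antibody, on either side of the dotted line; points are libraries, and open points at the bottom are libraries with 0 counts. The Slam points lie above the Dia points in each of the 11, and CR43995, CR43051, CR43765 and CR42719 are near or at 0 with the Dia antibody.

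Long noncoding RNAs whose coordinates span a microRNA gene formed a group of 8 members, all tested, with a median log2 enrichment of 1.10, and 1 of them passed. Over all genes tested, the median was -0.03 and 6.84% passed as higher. CR43650 and CR31451 reach the limit only with the Slam libraries, so that the median of the 8 supports nothing about the class. Whether the microRNA is cut from the member was not examined, and the strands were not compared. The member that passed was CR31044, on 3R (29214562 to 29219667), which spans mir-279 and mir-996, a pair of related microRNAs that act in fly sensory development. It had 16.8, 24.2 and 22.1 CPM with the Slam antibody, against 8.44, 10.5, 4.23 and 7.59 CPM with the Dia antibody. The groups did not overlap, and the log2 enrichment was 1.43 (SE 0.351, edgeR adjusted p = 0.0253). It lost its call without Slam 1, Slam 2, Slam 3 or Dia 1 (adjusted p = 0.0505, 0.122, 0.104 and 0.0549).

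CR42651, which spans mir-10 in the Hox gene region of 3R, had 3.51, 5.71 and 4.64 CPM with the Slam antibody, against 1.12, 0.763, 1.56 and 0.421 CPM with the Dia antibody (log2 enrichment 2.33, SE 0.711, edgeR adjusted p = 0.0567). CR43650, which spans mir-8, had 7.59, 9.95 and 4.85 CPM against 2.65, 2.35, 0.223 and 1.36 CPM (log2 enrichment 2.12, SE 0.705, adjusted p = 0.0725). With 388 counts outside the Slam libraries, CR43650 is a member only through them, so that its values are a description. CR42651 and CR43650 were both separated from their controls in every library. Neither passed in edgeR's fit of all antibody libraries, while DESeq2 called both (adjusted p = 0.0141 and 0.0179). The fit of all 12 libraries also called both, and CR42651 passed without Dia 3. The other 5 span mir-ban (the growth regulator bantam), mir-275, mir-14, mir-9381 and mir-31b, and their log2 enrichments ran from -0.17 to 1.25. The highest was that of CR31451 (mir-9381), a description, as it had 311 counts outside the Slam libraries. The member with mir-31b, CR43836, covers 76084 bases and 4 coding genes, so that its counts may not be its alone.

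CR43051, which RefSeq now lists as the coding gene CG43051, lies on 2L (12507939 to 12508504) and overlaps bun, a transcription regulator gene, and a small nucleolar RNA gene. It had 3.84, 14.6 and 3.05 CPM with the Slam antibody, against 0.349 CPM in Dia 1 and 0 in Dia 2 to 4. Its 646 counts against 5 give a CPM ratio of 87.5 (95% counting interval 37.3 to 270). It is a member only through its Slam libraries, with 86 counts in the others, so that the ratio is a description. The log2 enrichment was 6.18 (SE 1.21) and 10.22 without Dia 1, the single Dia library with reads of it. bun had a log2 enrichment of 0.19 (adjusted p = 0.619).

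Of the 5 antisense RNAs tested, none passed in edgeR's TMM fit of all antibody libraries. In that fit 2 were higher at an unadjusted p under 0.05, and 2 (CR43629 and CR43957) were called by DESeq2. These 5 had a median log2 enrichment of 0.73, against -0.03 over all genes tested. CR43629, which overlaps CG31522, had the highest at 3.34 (SE 1.05, adjusted p = 0.0610, and 75 counts outside the Slam libraries), with 4.08, 7.95 and 4.05 CPM with the Slam antibody against 0.558, 0, 1.78 and 0.234 CPM with the Dia antibody. It also passed in edgeR with total-count scaling (adjusted p = 0.0493), without Dia 3 (0.0299) and in the fit of all 12 libraries (0.0460). CG31522 had a log2 enrichment of 0.49 (adjusted p = 0.1503). CR43957, which overlaps ci, the transcription factor of Hedgehog signaling, had 2.33 (SE 0.860, adjusted p = 0.0992, and 199 counts outside the Slam libraries), against 0.82 for ci itself.

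Among the 9 pseudogenes tested, 1 was higher and 1 lower. CR31032, on 3R (29859041 to 29859865) and overlapping no listed gene, had 8.63, 16.6 and 13.5 CPM with the Slam antibody, against 2.58, 3.31, 0 and 2.62 CPM with the Dia antibody. Its log2 enrichment was 2.53 (SE 0.742, edgeR adjusted p = 0.0498), at the edge of the threshold: it was not called with RLE size factors (adjusted p = 0.0502) or without any 1 of the 6 antibody libraries other than Dia 3 (adjusted p = 0.0617 to 0.151). Reads of a pseudogene may be shared with its parent gene, and the handling of shared reads is not given in the sources used here.

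CR14033, a pseudogene on 2L that overlaps tkv, which encodes a BMP receptor, was lower. Its levels were 55.5, 52.9 and 64.0 CPM with the Slam antibody, against 118, 109, 139 and 94.3 CPM with the Dia antibody. Every Slam library lay below every Dia library, and the log2 ratio was -0.999 (SE 0.194, edgeR adjusted p = 0.00961). It did not pass without Slam 2 (adjusted p = 0.0538). tkv had a log2 ratio of -0.01 (adjusted p = 0.984). CR43361, a pseudogene on chromosome 4 that overlaps unc-13, a gene of synaptic vesicle release, stood unlike it: unc-13 had a log2 enrichment of 2.94 (adjusted p = 6.53e-05) and CR43361 one of 0.10 (SE 0.459).

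The hairpin RNAs and the small RNA CR43603 stayed within log2 ratios of -0.20 to 0.36 in the antibody experiment. CR18854, the third most counted member, had 171, 253 and 229 CPM with the Slam antibody, against 111, 191, 222 and 241 CPM with the Dia antibody. CR32207 had 45.4, 83.9 and 64.4 CPM against 46.7, 58.6, 70.1 and 61.3 CPM. The groups overlapped in each of these members. Of the 10 most counted members, CR30055, which overlaps the corepressor gene Sin3A, was the most even, with 46.2, 48.2 and 48.7 CPM with the Slam antibody, against 43.9, 57.5, 40.1 and 46.9 CPM with the Dia antibody (log2 ratio 0.02, SE 0.194). CR43837 had a log2 enrichment of 0.26 (SE 0.274) and CR42862 one of 0.55 (SE 0.223), and neither passed. CG33229, a coding gene that overlaps CR42862, rose with a log2 enrichment of 1.05 (adjusted p = 0.0237).

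**Figure D3:**
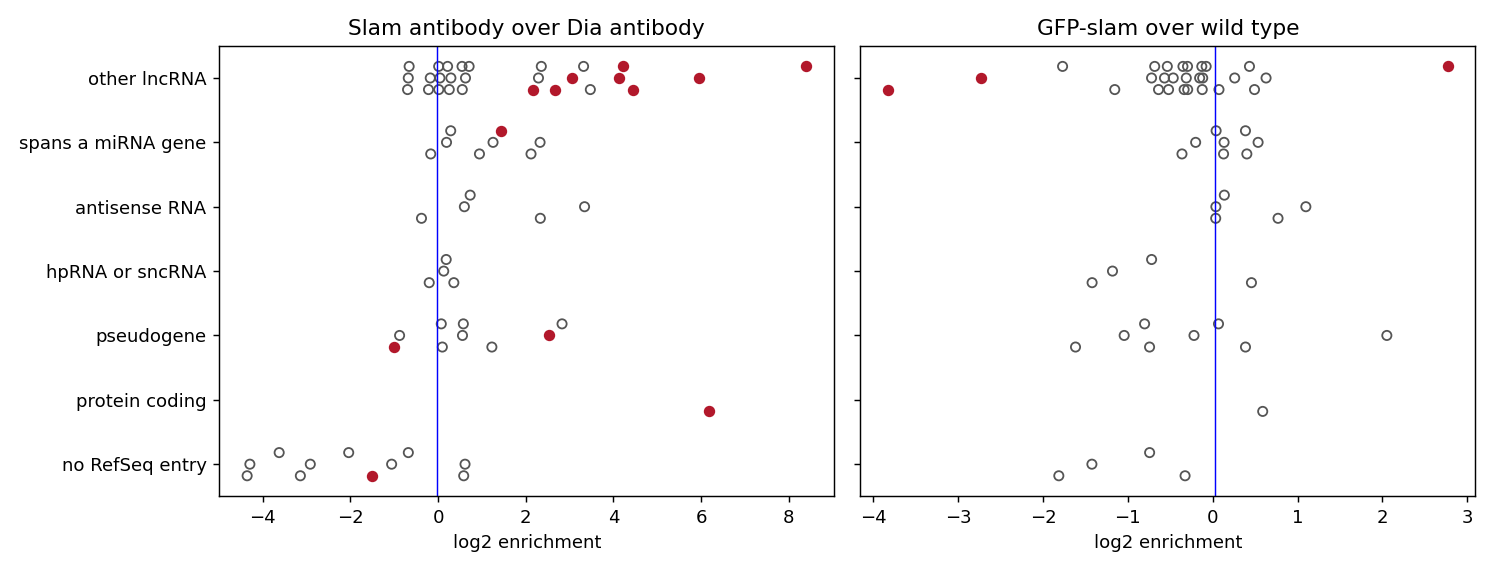
Fitted log2 enrichment of the tested members by annotation class in each experiment; filled points passed edgeR's test, and the line is the median of all genes tested (-0.03 and 0.02). With the Slam antibody 8 of the 11 higher members are long noncoding RNAs that span no microRNA gene, 7 of them under 500 counts without the Slam libraries, and the members with no RefSeq entry reach down to -4.36.

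The 11 members without a RefSeq entry were most abundant with the Dia antibody, above all in 1 library. They took 0.0128%, 0.00972% and 0.0134% of the counts with the Slam antibody, against 0.0475%, 0.0325%, 0.359% and 0.0293% with the Dia antibody, and 0.00107% and 0.000720% in GFP-slam, against 0.00251%, 0.00175% and 0.00156% in wild type. Dia 3, the library of the lowest total, held the largest share, and there they made up 70.2% of all member counts. In 7 of the 11, Dia 3 was the highest of the antibody libraries. CR41613, on an unplaced scaffold, accounted for most of it, with 2284 CPM in Dia 3, against 325, 144 and 129 CPM in Dia 1, 2 and 4 and 13.2, 32.0 and 60.04 CPM in Slam 1 to 3. It had 0 counts in all 5 GFP-binder libraries, as did CR41583.

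The log2 ratios of the unmatched members with the Slam antibody ran from -4.36 (CR41613, SE 1.44, adjusted p = 0.111) to 0.62, with a median of -2.04, and 1 of the 11 passed. Without Dia 3, the median was -1.08 and the log2 ratio of CR41613 was -2.60 (edgeR adjusted p = 0.0548). CR41535 had -4.29 (adjusted p = 0.1004) and, without Dia 3, -2.51 (adjusted p = 0.00724). CR41590, CR40640, CR40621 and CR42195 had -3.63, -3.14, -2.92 and -2.04, and -1.47, -1.09, -1.08 and -0.037 without Dia 3. The member that passed was CR40668, with 19.2, 7.95 and 7.55 CPM with the Slam antibody, against 20.9, 33.0, 25.6 and 51.2 CPM with the Dia antibody. Its log2 ratio was -1.51 (SE 0.410, edgeR adjusted p = 0.0388). It was -2.10 without Slam 1, and it did not pass without Slam 2, Slam 3 or Dia 4 (adjusted p = 0.144, 0.117 and 0.0745) or in the fit of all 12 libraries (adjusted p = 0.0552). With the replicate block, 6 members were lower: CR14033, CR40668, CR40469 and the unmatched CR41613, CR40640 and CR40621, whose log2 ratios were -4.06, -3.18 and -3.02 (adjusted p = 0.0238, 0.0308 and 0.0482). CR40621 and CR42195 are members only through their Dia libraries, so that their values are descriptions.

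With the GFP-binder, the comparison of GFP-slam with wild type asked the same of tagged Slam. Of the 57 members tested among 8767 genes, 1 was higher and 2 were lower. Over all genes, 0.525% passed as higher and 0.228% as lower. The median log2 enrichment was -0.22 over the 57 members and 0.02 over all genes, and 44 members lay between -1 and 1. Groups did not overlap in 8 members that were higher (8.98% of all genes) and in 13 that were lower (8.42%). More than 4-fold higher were 2 members (1.16% of all genes) and more than 4-fold lower 2 (1.75%).

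All 3 members that passed were long noncoding RNAs of the X chromosome. CR34335, at 3545862 to 3546110 in the deposited tables and overlapping the cell surface gene DIP-alpha, had 54.2 and 30.0 CPM in GFP-slam, against 7.34, 3.94 and 7.30 CPM in wild type. Its log2 enrichment was 2.77 (SE 0.358, edgeR adjusted p = 0.00686). DIP-alpha had one of -0.24. CR34335 no longer passed without wild type 1, 2 or 3 (adjusted p = 0.0832, 0.0855 and 0.0776), with a log2 enrichment of at least 2.48 in each case.

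CR40469, of 214 bases near the end of X (122493 to 122706), had 4.27 and 3.49 CPM in GFP-slam, against 77.5, 30.6 and 56.5 CPM in wild type, a log2 ratio of -3.82 (SE 0.429, edgeR adjusted p = 0.00242). CR42861, on X (13744928 to 13745476), had 3.90 and 3.98 CPM in GFP-slam, against 32.1, 23.7 and 22.6 CPM in wild type, a log2 ratio of -2.73 (SE 0.297, edgeR adjusted p = 0.00223). In both members the groups were far apart. Each was called in all 12 alternatives, with an adjusted p of at most 0.0303 for CR40469 and 0.0260 for CR42861.

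The antibody libraries also came from wild-type lysate, and were normalized apart from those of the GFP-binder. CR40469 had 43.9 to 72.1 CPM with the Slam antibody and 82.4 to 104 CPM with the Dia antibody, and CR42861 had 19.8 to 33.3 CPM and 17.1 to 34.7 CPM. In both members, the 2 GFP-slam libraries were thus below all 10 libraries of wild-type embryos. CR34335 had 6.73 to 17.7 CPM with the Slam antibody and 11.6 to 26.02 CPM with the Dia antibody, all below both GFP-slam libraries. In the antibody experiment, the log2 ratios were 0.04 for CR42861 (SE 0.289), -0.68 for CR34335 (SE 0.393) and -0.70 for CR40469 (SE 0.207, edgeR adjusted p = 0.0522). The last passed with the replicate block (-0.77, adjusted p = 0.0274).

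Genes next to these members were looked at after their values were seen. Of the 10 nearest genes tested around CR34335, log2 ratios with GFP-slam ran from -0.24 to 0.80, and around CR42861 from -0.22 to 0.36. CR40469 had 5 tested neighbours, all on one side. The nearest, CG17636, whose start lies 1877 bases away in Release 6, had a log2 ratio of -2.52 (SE 0.721, edgeR adjusted p = 0.282), and the other 4 lay between -0.21 and 0.76.

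**Figure D4:**
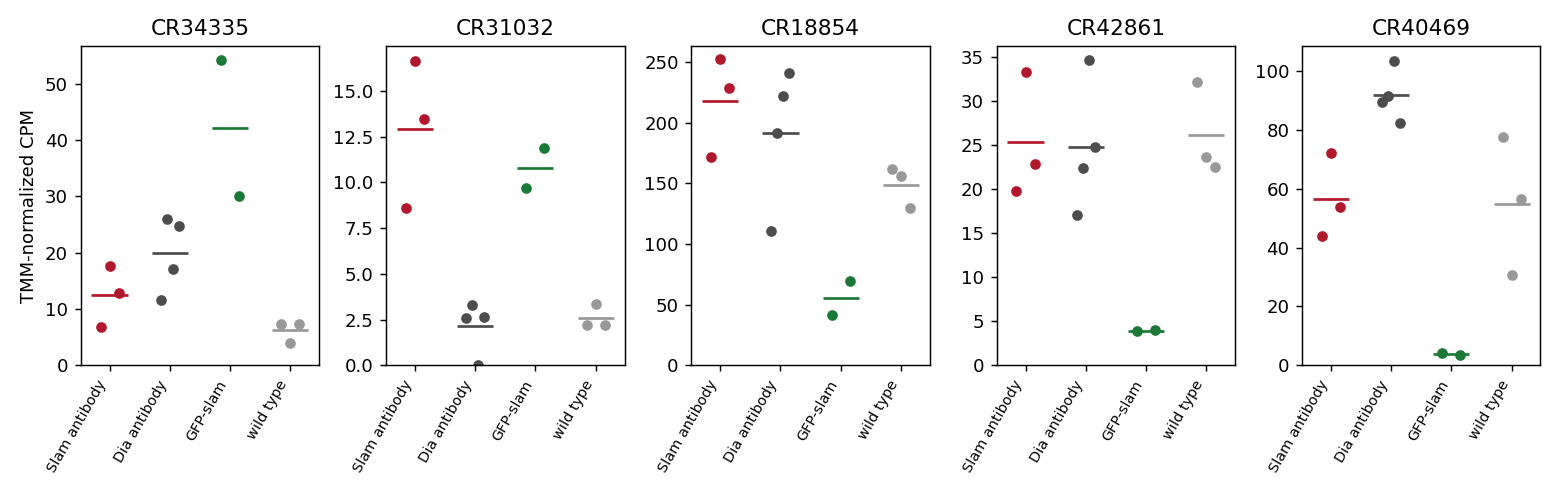
Levels in TMM-normalized CPM (linear axes from 0, one per gene) of the 3 members that passed with the GFP-binder (CR34335, CR42861 and CR40469), of CR31032 and of CR18854; points are libraries and lines are group means. CR42861 and CR40469 are under 5 CPM in both GFP-slam libraries and above 15 CPM in the 10 others, and CR31032 is high with Slam antibody and GFP-slam.

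CR31032, the pseudogene, was the single member more than 4-fold higher in both experiments. It had 9.67 and 11.9 CPM in GFP-slam, against 2.20, 3.35 and 2.23 CPM in wild type. Both GFP-slam libraries lay above every wild-type library. The log2 enrichment was 2.05 (SE 0.389, edgeR adjusted p = 0.0514), which missed the threshold. It passed in DESeq2, with no minimum of counts, with filterByExpr and without GFP-slam 1 (adjusted p = 0.0172). It did not pass with RLE or total-count scaling (adjusted p = 0.0542 and 0.0798), without GFP-slam 3 (0.0768), without wild type 1, 2 or 3 (0.184, 0.179 and 0.251) or in the fit of all 12 libraries (0.494). Its enrichments in the 2 experiments differed by 0.48 (SE 0.972, adjusted p = 0.810).

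Hairpin RNAs were not alike with the GFP-binder. CR18854 had 41.5 and 69.8 CPM in GFP-slam, against 161, 156 and 130 CPM in wild type (log2 ratio -1.42, SE 0.297, edgeR adjusted p = 0.0782). CR32205 had 5.74 and 6.76 CPM against 15.9, 13.8 and 12.8 CPM (log2 ratio -1.18, SE 0.295, adjusted p = 0.175). CR32207 had 70.0 and 80.7 CPM against 58.0, 54.7 and 51.9 CPM (log2 ratio 0.46, SE 0.225, adjusted p = 0.947). Groups did not overlap in any of them. None passed in edgeR's fit of all GFP-binder libraries with the minimum of counts. CR18854 and CR32205 were lower there at an unadjusted p under 0.05 and were called by DESeq2. CR18854 also passed in edgeR with no minimum of counts (adjusted p = 0.000375). The 8 transcripts with a microRNA gene lay between -0.36 and 0.54, and the 5 antisense RNAs tested between 0.04 and 1.10.

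The enrichments of the experiments, which share no libraries, were compared in 1 model over the 52 members tested in both, among 7197 genes. A larger enrichment with the antibody was found for 4 members (2.67% of all genes) and a larger one with GFP-slam for 1 (0.653%). The differences, antibody minus GFP-slam, were 5.38 for CR43264 (SE 0.813, edgeR adjusted p = 0.00154), 3.73 for CR30009 (SE 0.739, adjusted p = 0.0117), 3.14 for CR40469 (SE 0.425, adjusted p = 0.000653), 2.78 for CR42861 (SE 0.433, adjusted p = 0.00202) and -3.41 for CR34335 (SE 0.576, adjusted p = 0.00357). Each of the 5 passed in all 14 alternatives. CR30009 is a member only through its Slam libraries, so that its difference is a description.

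CR43264 and CR30009, the second of which is just short of 500 counts without the Slam libraries, differed through the antibody experiment. CR43264 had 1.42 and 1.87 CPM in GFP-slam, against 2.495, 5.84 and 2.67 CPM in wild type, and CR30009 had 0.279 and 1.54 CPM against 1.57, 1.86 and 1.12 CPM. The difference of CR30009 was 2.97 without GFP-slam 1 and 5.56 without GFP-slam 3. CR40469, CR42861 and CR34335 differed mainly through GFP-slam, as given above. For CR43887 and CR43432 the differences of 3.04 (SE 1.138, adjusted p = 0.188) and 2.86 (SE 1.04, adjusted p = 0.175) did not pass.

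**Figure D5:**
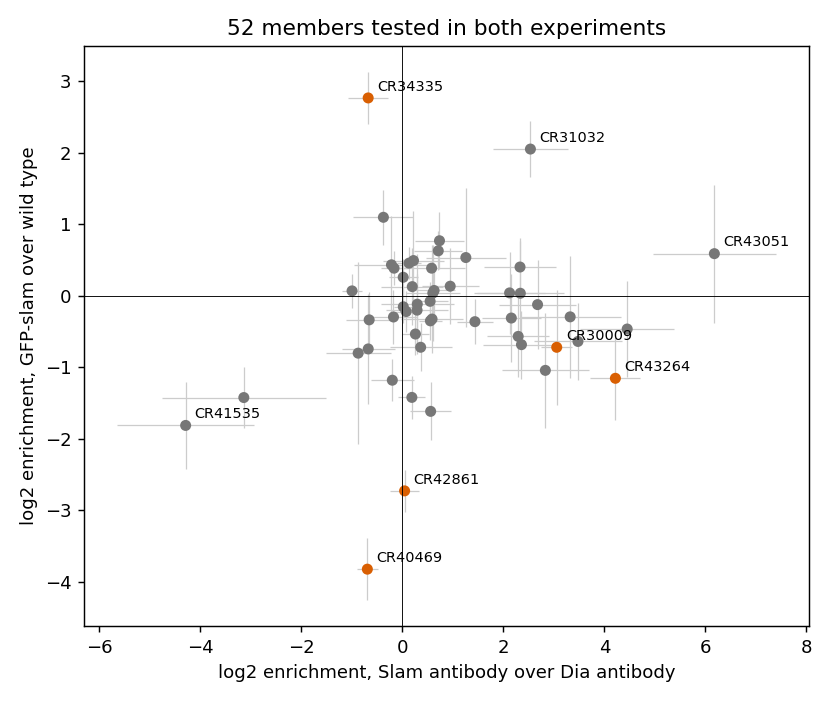
Log2 enrichment with GFP-slam over wild type (y) against that with the Slam over the Dia antibody (x) for the 52 members tested in both experiments; bars are SE and orange points are the 5 members whose enrichments differed. CR31032 lies above 2 on both axes, and CR40469 and CR42861 lie at -3.82 and -2.73 on the y axis.

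Noncoding genes with names of their own, which are no members, were set beside them. Of 19 listed, 10 were tested with the Slam antibody, 9 were higher and the median log2 enrichment was 2.89. The list was chosen with results of these data known and is not independent evidence. Among the 9 were roX1 and roX2, RNAs of the dosage compensation complex, with 2.65 (SE 0.301, edgeR adjusted p = 0.000201) and 3.66 (SE 0.357, adjusted p = 7.44e-05), Hsromega, a nuclear RNA induced by heat shock, with 2.77 (SE 0.250, adjusted p = 5.18e-05), and Uhg2, a host of small nucleolar RNAs, with 3.93 (SE 0.364, adjusted p = 6.12e-05). With GFP-slam, the median of the 10 tested was -0.33, and roX1 had -0.36 (SE 0.291, adjusted p = 0.9999).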

How the data were processed

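RNA bound in precipitates was sequenced on a HiSeq2000 (2 to 4 biological replicates by the methods). The authors deposited whole-number counts of reads per gene in a table for each experiment; 0 columns of a library were left unused. Per the labels, the submitters' processing notes list STAR 2.5.0, DESeq2, bcl2fastq 2.17.1.14 and FastQC 0.11.4. Not given in the sources used here: counting tool, strand setting, genome build, annotation. The deposited comparison tables hold the authors' fold changes and p-values and were read only for coordinates and lengths.

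Counts were fitted in R 4.3.3 with edgeR 4.0.16 (TMM, robust glmQLFit, glmQLFTest) on all genes whose mean normalized count reached 50 in the antibody or 10 in the GFP-binder experiment, with Benjamini-Hochberg adjustment over all of them and a threshold of 0.05. SE is |log2 ratio| over the root of the F statistic. The fit was tested on simulated data. Alternatives were RLE or total-count scaling, DESeq2 1.42.0, other minimums, a replicate block, a joint fit, each library left out, and members chosen without 1 group's libraries. The last was added after the data were seen. With GFP-slam 1 or 3 left out, the lone library is assumed to vary like wild type. Same-numbered antibody libraries deviated together (r = 0.254, 0.391 and 0.151 across genes), though Slam 3 followed Dia 4 more closely (0.278). The numbers were therefore taken as a possible pairing and entered only as the replicate block. Calls and p-values given without a named alternative are unpaired. For the GFP-binder, 2 pairs (0.191 and 0.208) were too few to judge a pairing. There the block drops wild type 2 from the contrast, as no GFP-slam library shares its number. Its p-values thus rest on those 2 pairs.

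The spread between replicates of a group exceeded counting noise (chi-square over its degrees of freedom 51.6 to 332 over genes of 10 or more counts in a pair); members of few counts in a group are limited by depth there. Members passing a test, the 10 most counted, those at the limit, 4-fold in both experiments or differing between them were named by rule. Other members, such as CR42651, CR43650, CR43361, CR32205 and CR41535, were named outside this rule, with their values known. Members and lists were chosen with earlier results of these data known. Symbols were matched to RefSeq (59 of 70). Scripts used Python 3.11.15 (numpy 2.4.6, pandas 2.3.3, scipy 1.17.1, matplotlib 3.10.9).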

Additional observations from a re-analysis of the deposited data

Results flagged for a closer look

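Within the group of 4 Dia libraries, 27 named members were examined for a library far from the others, and 5 had one. Chance alone marks about 1 in 20 groups, a rate that cannot be applied to CR43051 and CR43995, where any count marks the library because the other 3 Dia libraries were at 0. CR41613 had 2284 CPM in Dia 3. CR43241 and CR43257 had 0.0 CPM in Dia 3, CR43051 had 0.349 CPM in Dia 1 where the others had 0, and CR43995 had 0.0468 CPM in Dia 4 where the others had 0; these last values rest on 5 counts and 1 count.

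In 5 members the enrichment differed between the experiments by the test of the difference itself, with antibody minus GFP-slam of 5.38 for CR43264, 3.73 for CR30009, 3.14 for CR40469, 2.78 for CR42861 and -3.41 for CR34335 on the log2 scale. The value of CR30009 is a description, as it is a member only through its Slam libraries.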

How the results depend on the processing

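With the Slam antibody, 11 members were higher and 2 lower. These counts were 20 and 4 in DESeq2 and 18 and 2 in the joint fit, each with all 11 higher members among them, and 14 and 6 with the replicate block, with 10 of the 11. They were 3 higher among members with 500 counts outside the Slam libraries. With 1 library left out, they were 4 to 15 higher and 0 to 3 lower, among 55 to 68 members tested. With GFP-slam, 1 was higher and 2 lower. These counts were 2 and 5 in DESeq2, 2 and 4 with no minimum of counts and 2 higher with filterByExpr. They were 2 and 3 with the replicate block, which rests on only 2 pairs of libraries (CR31032 2.28, edgeR adjusted p = 0.00358). With 1 wild-type library left out, they were 0 and 2. The differences between experiments numbered 4 to 9 and 1 to 2 with 1 library left out, against 4 and 1. A limit of 500 counts in each experiment leaves 29 members, and one over the controls alone 36. The causes of these shifts were not tested.

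Signs turned only in log2 ratios that had not passed. With total counts these were, for the antibody, CR42861 (-0.020) and CR30055 (-0.063), and with the replicate block, for GFP-slam, CR14033 (-0.0046) and CR43432 (0.090). With 1 library left out, antibody log2 ratios ranged from -0.21 to 0.16 for CR42861, -0.0037 to 0.32 for CR18854, -0.11 to 0.30 for CR32207, -0.14 to 0.021 for CR30055, -0.054 to 0.46 for CR43837 and -0.46 to 0.078 for CR43963, and GFP-slam ones from -2.45 to 0.028 for CR30009, -0.55 to 0.18 for CR43241, -0.053 to 0.18 for CR14033 and -0.15 to 0.43 for CR43257.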
